A study of Rattus norvegicus with 30 samples.

Results

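Cadherins are membrane proteins that hold cells together by binding, in the presence of calcium, the same or a related cadherin on the neighbouring cell, and their cytoplasmic tails reach the actin cytoskeleton through catenins. In the brain, different neurons, synapses and epithelial layers carry different cadherins, so their transcripts also vary with the brain region sampled. The 10 genes described here are a chosen set of cadherins of neurons and ependyma, the ciliated cell layer that lines the ventricles, and their rows were found by gene symbol among the 17134 genes of the table. All 10 were found. Cdh2 (N-cadherin) and Cdh4 (R-cadherin) are classical type I cadherins. Cdh6, Cdh8, Cdh9, Cdh10, Cdh11 and Cdh22 belong to the type II group. Cdh13 (T-cadherin) lacks a cytoplasmic tail and is held in the membrane by a lipid anchor, and Cdh26 is an epithelial cadherin. Cdh8, Cdh22 and Cdh26 had been picked because of their values in HIP rats, so they are described below without a test in any comparison, and the other 7 genes were tested.

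Brain RNA was sequenced from 30 male rats on a normal diet, 10 in each of 3 groups. WT rats are Sprague Dawley rats with their own rat amylin, a peptide hormone that pancreatic β-cells secrete together with insulin and that does not form amyloid in rats. HIP rats carry rat amylin and also express human amylin, which forms amyloid, in their pancreatic β-cells, and develop type-2 diabetes. AKO rats lack rat amylin. WT and HIP rats were 15 to 16 months old. The age of these AKO rats is not given in the sources used here. Of the AKO rats, some have names with AKO and some with KAH. The gene for rat amylin was not found under its symbol Iapp and is not analysed here, so the knockout could not be checked by its target. The tissue is frontal cortex in the sample annotation, cerebral cortex in the study's methods and hippocampus in its results.

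The values are normalized counts, and their totals were 15.4 to 17.98 M (mega) per rat. The estimated reads on genes were 12.9 to 23.6 M per rat, with medians of 19.1 M in WT, 15.6 M in HIP and 16.1 M in AKO rats. In 3 libraries the tissue label did not hold for all of the RNA, as judged by Gabra6, a GABA receptor subunit of cerebellar granule cells, or Tph1, the serotonin-producing enzyme of the pineal gland, above 100 normalized counts. WT rat 10RT43 had 17979 normalized counts of Gabra6 and a mean of 5.06 (log2) over 8 neocortical layer markers, against 9.27 to 10.17 in the 27 rats with neither marker above 100. HIP rat 12RT23 had 1564 normalized counts of Gabra6, and HIP rat 10RT46 had 19081 of Tph1 and 14881 of Ttr, the transthyretin of choroid plexus. In the other 27 rats Gabra6 was 1.12 to 16.5 and Tph1 was at most 13.2. These 3 libraries are called off-target libraries, and results are given with and without them. Olfactory bulb markers also separated the 27 rats into 17 with a list mean of 4.17 to 5.71 (log2) and 10 with 7.17 to 9.74, and the latter comprised 3 WT, 3 HIP and 4 AKO rats. AKO rat 7AKO19, which was below both thresholds, had a choroid plexus list mean of 7.05 (log2), against 1.26 to 3.88 in the other 26 rats. In bulk tissue, fewer cells of a type and less RNA per cell cannot be told apart.

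The level of each cadherin by rat is given first. Cdh2, the N-cadherin of most neural cells, was among the steadiest. It had 1353, 1959 and 2120 normalized counts (lowest, median and highest) in WT rats, 1707, 1862 and 2010 in HIP rats and 1223, 1838 and 2199 in AKO rats. The groups overlapped almost completely, and the lowest WT value was that of the off-target library 10RT43. Cdh4, the R-cadherin, had 547, 840 and 1167 in WT, 372, 800 and 1010 in HIP and 555, 944 and 1188 in AKO rats. Its lowest WT and HIP values came from the off-target libraries 10RT43 and 10RT46.

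Among the type II cadherins, Cdh6 varied most between rats of a group. It ranged from 53.8 to 797 normalized counts in WT rats (median 420), from 131.9 to 744 in HIP rats (median 454) and from 94.8 to 559 in AKO rats (median 298). Its coefficient of variation was 50.5% in WT, 44.7% in HIP and 39.9% in AKO rats, compared to 11.4%, 6.03% and 14.4% for Cdh2.

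Cdh8, a synaptic cadherin of corticostriatal circuits and one of the picked genes, had 271, 341 and 458 normalized counts in WT, 318, 399 and 637 in HIP and 251, 347 and 436 in AKO rats. Of the 10 HIP rats, 8 lay above the WT median and 3 above the highest WT rat, and the highest HIP value was that of the off-target library 12RT23. Means were 349 ± 56.1 in WT, 429 ± 103 in HIP and 344 ± 66.5 in AKO rats (SD, n = 10 per group).

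Cdh22, the other picked type II gene, lay lower in most HIP rats. It had 979, 1056 and 1221 normalized counts in WT, 652, 948 and 1093 in HIP and 989, 1173 and 1404 in AKO rats. Of the 10 HIP rats, 7 lay below the lowest WT rat, and all 10 lay below the AKO median. Means were 1076 ± 80.1 in WT, 919 ± 127 in HIP and 1180 ± 133.8 in AKO rats (SD, n = 10 per group). The lowest HIP value came from the off-target library 10RT46.

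Cdh9, a cadherin of specific hippocampal synapses, had 3.59, 117 and 164 normalized counts in WT, 102, 125 and 191 in HIP and 96.0, 124 and 178 in AKO rats. The value of 3.59, about 3 estimated reads, was that of the off-target library 10RT43, and the next lowest WT rat had 91.5. Cdh10 had 142.3, 681 and 890 in WT, 500.3, 731 and 977 in HIP and 504, 683 and 908 in AKO rats. Cdh11, which is also known from mesenchyme and bone, had 221, 560 and 738 in WT, 440.3, 672 and 959 in HIP and 448, 586 and 868 in AKO rats. For Cdh9, Cdh10 and Cdh11 the lowest WT value was in each case 10RT43, and without it the ranges of the 3 groups overlapped widely.

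Cdh13, the lipid-anchored T-cadherin, had 560 (10RT43), 2265 and 2716 normalized counts in WT, 1418 (10RT46), 2091 and 2413 in HIP and 1789, 1991 and 2619 in AKO rats. Its median was lower in HIP and AKO than in WT rats, with overlapping ranges.

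Cdh26, the third picked gene, was close to the limit of detection. It had 0, 0.970 and 4.94 normalized counts in WT, 0.969, 3.14 and 25.2 in HIP and 0, 2.31 and 7.63 in AKO rats, and it was 0 in 3 WT and 2 AKO rats. More than 3 estimated reads were found in 2 WT, 2 HIP and 3 AKO rats, and the 2 HIP rats were the off-target libraries 12RT23 and 10RT46. Among the other 8 HIP rats the highest value was 3.30, below the highest WT value. The plot of the 10 genes by rat shows these values.

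**Figure D1:**
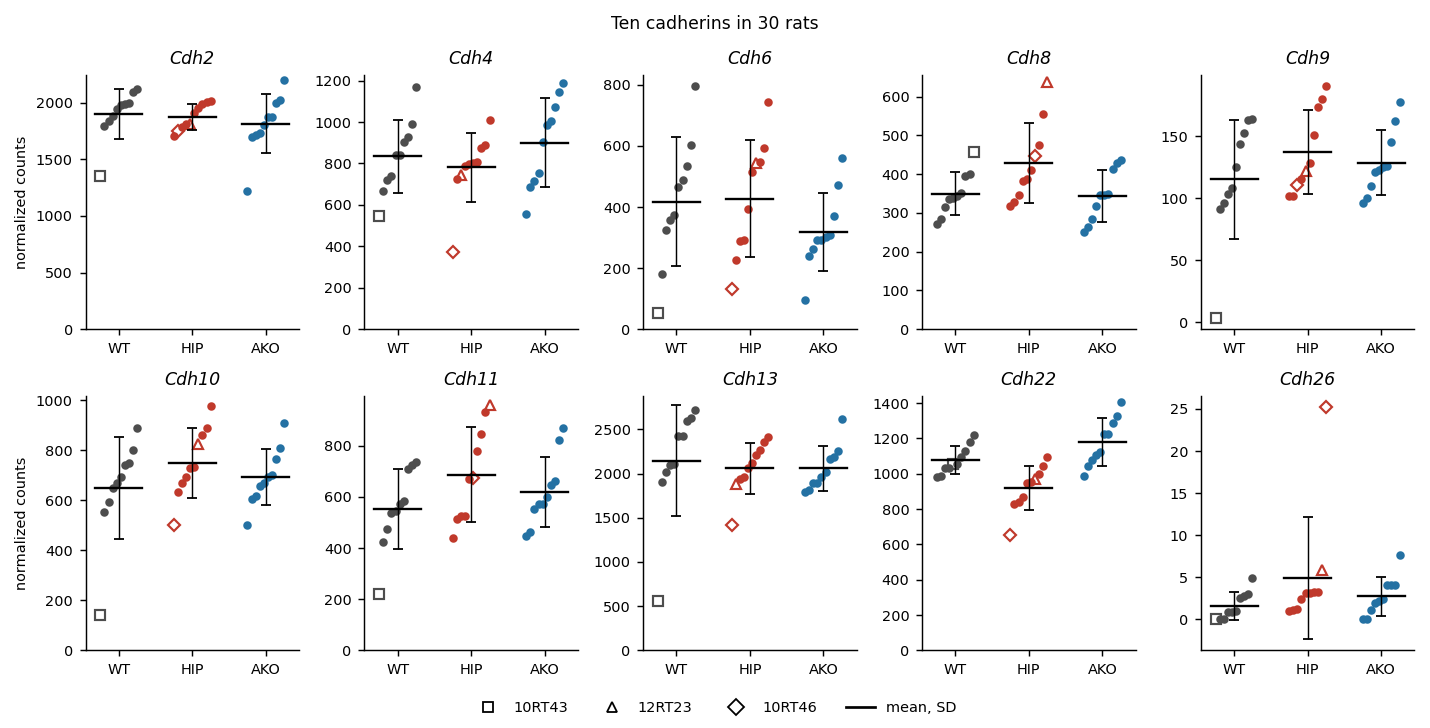
Normalized counts (y axis, one scale per gene starting at 0 or just below) of the 10 cadherins in WT, HIP and AKO rats. Each point is a rat, open symbols are the off-target libraries 10RT43 (square), 12RT23 (triangle) and 10RT46 (diamond), and lines give the mean and SD (n = 10 per group). Cdh9 is near 0 in 10RT43 alone, Cdh26 stands out in 10RT46 alone, and for Cdh22 most HIP rats lie under the WT rats.

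Promoter sequences of Cdh8, Cdh10 and Cdh22 are printed because across the 27 rats Cdh8 and Cdh10 varied together and Cdh22 varied against them (values below). Since Cdh8 and Cdh22 were picked on their HIP values, the opposite variation of these genes is partly built in. The RefSeq table of the rat assembly GRCr8 held the promoter of 5 of the 10 genes (Cdh6, Cdh8, Cdh10, Cdh22 and Cdh26), as a window of 300 bases around the gene start on the strand of the gene. The deposited counts are on rn7, so the coordinates below belong to another build than the counts. Capitals mark each CG dinucleotide, the site of DNA methylation in vertebrates. Cdh8 lies at chr19:5500216-5500515 (plus strand), Cdh10 at chr2:70355439-70355738 (plus strand) and Cdh22 at chr3:174389843-174390142 (minus strand).
Cdh8: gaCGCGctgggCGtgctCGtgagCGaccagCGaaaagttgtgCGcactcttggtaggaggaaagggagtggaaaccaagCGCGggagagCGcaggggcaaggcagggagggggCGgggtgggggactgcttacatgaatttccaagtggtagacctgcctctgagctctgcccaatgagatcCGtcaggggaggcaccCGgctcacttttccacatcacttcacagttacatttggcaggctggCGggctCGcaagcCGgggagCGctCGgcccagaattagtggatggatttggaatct
Cdh10: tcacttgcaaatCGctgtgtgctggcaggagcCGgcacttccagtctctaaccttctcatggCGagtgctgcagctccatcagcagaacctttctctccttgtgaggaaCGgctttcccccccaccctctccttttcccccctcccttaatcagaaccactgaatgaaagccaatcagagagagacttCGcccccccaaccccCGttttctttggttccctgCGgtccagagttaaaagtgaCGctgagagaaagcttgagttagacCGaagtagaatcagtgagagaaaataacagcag
Cdh22: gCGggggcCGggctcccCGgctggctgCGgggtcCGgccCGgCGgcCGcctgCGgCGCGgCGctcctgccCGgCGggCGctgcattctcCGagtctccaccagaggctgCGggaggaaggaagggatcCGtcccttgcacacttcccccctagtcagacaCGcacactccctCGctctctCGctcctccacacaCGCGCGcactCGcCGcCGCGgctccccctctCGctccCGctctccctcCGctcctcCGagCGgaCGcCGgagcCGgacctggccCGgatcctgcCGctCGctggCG

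The Cdh22 window was the most GC-rich of the 5, with a GC content of 76.0% and 40 CG dinucleotides, more than in 96.8% of the 33469 promoters in the table. Cdh8 had a GC content of 60.3% and 18 CG dinucleotides, and Cdh10 had 52.3% and 9. Cdh6 had 57.3% and 10, and Cdh26 had 47.7% and 7, compared to medians of 51.7% and 7 over all promoters. On either strand, the GC box GGGCGG occurred once in Cdh8 and 2 times in Cdh6, in none of the other 3 windows, and in 33.1% of all promoters. The letters TATAAA, likewise read on both strands, occurred in none of the 5 windows and in 14.2% of all promoters. The E-box CAGGTG was also in none of the 5 and in 18.8% of all promoters on either strand. These matches describe letters in a window and were not tested against the expression values.

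HIP rats differ from WT rats in human amylin made in the pancreas and in type-2 diabetes, and these cannot be told apart in this comparison. The 7 tested cadherins did not differ detectably. None had an adjusted p-value under 0.05 (limma, two-sided, Benjamini-Hochberg over 17085 genes), where 0% of all genes were called, and none had an unadjusted p-value under 0.05, where 2.57% of all genes (439) were called. Cdh11 had the largest difference relative to its error, 687 ± 186 vs. 552 ± 157.4 normalized counts (SD, n = 10 per group), a log2 difference of 0.33 (SE 0.19, limma p = 0.0959, adjusted p = 0.999). It fell to 0.13 without the off-target libraries, of which 12RT23 was the highest HIP rat for this gene and 10RT43 the lowest WT rat.

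Cdh9 had the largest log2 difference of the tested genes, 0.58 (SE 0.47, limma p = 0.226, adjusted p = 0.999), and 0.15 without the off-target libraries. Cdh10 had 0.31 (SE 0.24, limma p = 0.204), and 0.13 without them. The off-target library 10RT43 was the lowest WT rat for both genes. Cdh6 differed by 0.14 (SE 0.39) and by -0.03 without the off-target libraries, and Cdh13 by 0.03 (SE 0.21) and by -0.10. Cdh4 differed by -0.10 (SE 0.15), with a 95% interval of -0.41 to 0.20. Cdh2 had the narrowest interval, -0.15 to 0.13 around a log2 difference of -0.01. For Cdh9 the interval reached from -0.39 to 1.55, the widest of the 7.

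The picked genes had log2 differences (HIP minus WT) of 0.28 for Cdh8, -0.24 for Cdh22 and 0.96 for Cdh26, given as a description of the values for which they were picked. Without the off-target libraries these were 0.23, -0.19 and 0.42. When the rats with high olfactory bulb markers were also left out, with 5 HIP and 6 WT rats remaining, they were 0.15, -0.13 and 0.60. The value of Cdh26 depends on the 1 added before taking the logarithm, since 3 WT rats were at 0.

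The comparison of AKO and WT rats shares its WT rats with the one above. None of the 7 tested cadherins had an adjusted p-value under 0.05 (limma, two-sided), where 0.0997% of all genes were called, and none an unadjusted p-value under 0.05, where 9.34% (1594 of 17058 genes) were called. The log2 differences were -0.07 for Cdh2, 0.10 for Cdh4, 0.50 for Cdh9, 0.20 for Cdh10 and 0.21 for Cdh11, with adjusted p-values of 0.704 to 0.828. Without the off-target library 10RT43 those of Cdh9 and Cdh10 were 0.02 and -0.03.

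The AKO values of Cdh6 and Cdh13 also depended on the rats used. Cdh6 had 319 ± 127 vs. 418 ± 211 normalized counts (SD, n = 10 per group), a log2 difference of -0.24 (SE 0.38, limma p = 0.528). It was -0.54 without the off-target library (SE 0.27, limma p = 0.0601, adjusted p = 0.514). In that set the 8 neocortical layer markers had a median log2 difference of -0.27. Of these markers, 2 were lower at an unadjusted p-value under 0.05 (limma), which 10.3% of all genes had in either direction. The part of cortical tissue in the Cdh6 difference was not tested. The Cdh6 difference was -0.97 when the rats with high bulb markers were left out too (SE 0.32, limma p = 0.00825, adjusted p = 0.234, 6 rats per group). In the last set 14.6% of all genes reached an unadjusted p-value under 0.05, but Cdh6 did not pass the adjusted threshold in any of the 3 sets. Cdh13 had a log2 difference of 0.03 (SE 0.20, limma p = 0.875) with all rats and of -0.17 without 10RT43 (SE 0.08, limma p = 0.0489, adjusted p = 0.485), that is, the opposite direction, where 10.3% of all genes had an unadjusted p-value under 0.05. Among the picked genes, the AKO minus WT values were -0.03 for Cdh8, 0.13 for Cdh22 and 0.52 for Cdh26. Of the 10 AKO rats, 5 had more Cdh22 than the highest WT rat.

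HIP and AKO rats were also compared, and with all rats again no tested cadherin passed either threshold (limma, two-sided), where 0.17% of all genes had an adjusted and 12.7% (2179 of 17092 genes) an unadjusted p-value under 0.05. The largest difference was that of Cdh6, 428 ± 191 vs. 319 ± 127 normalized counts (SD, n = 10 per group), a log2 difference of 0.39 (SE 0.29, limma p = 0.203, adjusted p = 0.594). For Cdh6 it was 0.51 without the off-target libraries (SE 0.28, limma p = 0.0776, adjusted p = 0.387). With the bulb-high rats also left out it was 0.86 (SE 0.38, limma p = 0.0415, adjusted p = 0.383, 5 HIP and 6 AKO rats). In that last set 10.8% of all genes had a smaller p-value than Cdh6 (limma). Cdh4 had -0.21 (SE 0.16), and Cdh2, Cdh9, Cdh10, Cdh11 and Cdh13 lay between -0.00 and 0.13. Without the off-target libraries Cdh4 had -0.07 and the latter genes lay between 0.06 and 0.16, with Cdh13 going from -0.00 to 0.08. Of the picked genes, Cdh22 was lower in all 10 HIP rats than the AKO median, with 919 ± 127 vs. 1180 ± 133.8 (SD, n = 10 per group), a log2 difference of -0.37, and -0.32 without the off-target libraries. Cdh8 had 0.31 and 0.22, and Cdh26 had 0.44 and 0.03. The plot of log2 differences shows all 3 comparisons.

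**Figure D2:**
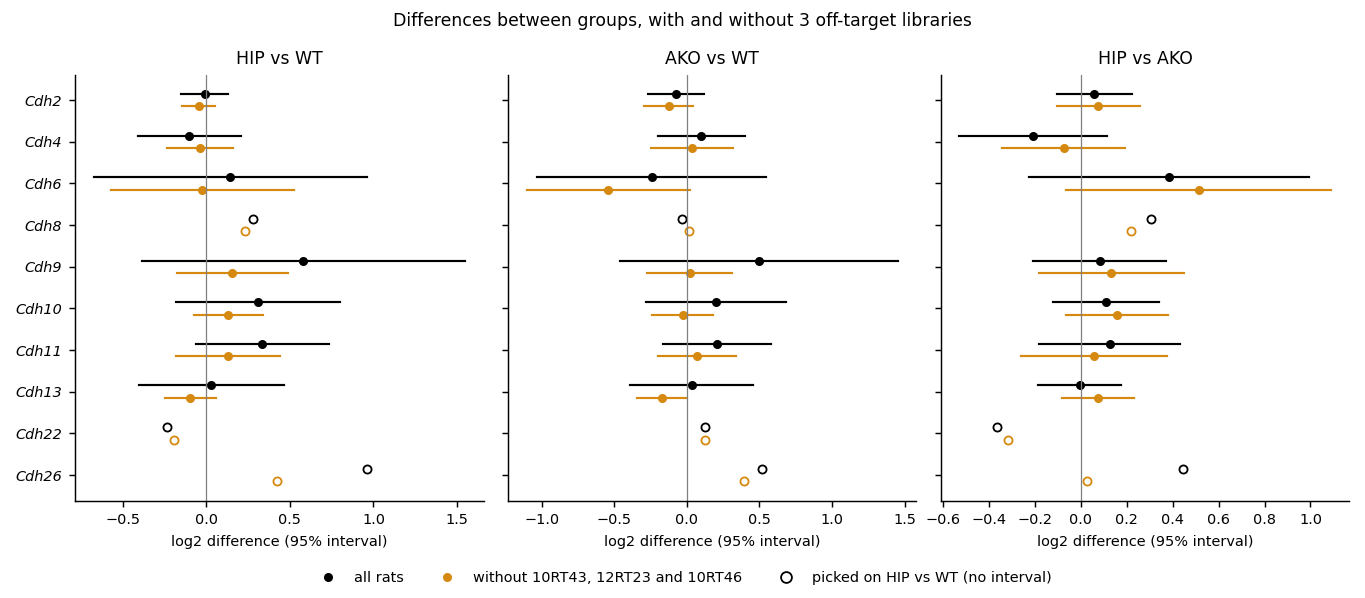
Log2 difference between groups (x axis, log2 of normalized count + 1) for the 10 cadherins in HIP vs. WT, AKO vs. WT and HIP vs. AKO rats, with all rats (black) and without the 3 off-target libraries (orange). Lines are 95% intervals from limma, and open circles are the picked genes Cdh8, Cdh22 and Cdh26, drawn without an interval. With all rats every interval crosses 0, and the Cdh9 difference in HIP vs. WT goes from 0.58 to 0.15 when the off-target libraries are left out.

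The off-target libraries were then compared with the range of the other 27 rats, each by itself and without a test, since they were defined by measured markers. In the cerebellum-rich WT library 10RT43, 6 of the 10 cadherins (Cdh4, Cdh6, Cdh9, Cdh10, Cdh11 and Cdh13) lay below all 27 other rats. The share of all genes that did so in this library was not determined, so the count cannot be read as a trait of cadherins. Cdh9 had 3.59 normalized counts, compared to 91.5 to 191. Cdh6 was at 14.5% of the median of the 27 rats, Cdh10 at 20.5%, Cdh13 at 26.4% and Cdh11 at 38.6%. Cdh22, with 1056 normalized counts, lay at that median, and Cdh8 was 1.32 times as high, so the type II cadherins did not all lie on the same side in this library.

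In HIP rat 12RT23, which had less cerebellar RNA than 10RT43 and a neocortical list mean of 9.86 (log2) within the range of the other rats, Cdh8 (637 normalized counts) and Cdh11 (959) lay above all 27 other rats, at 184% and 167% of their medians. None of the 10 cadherins lay below the range in this library. In HIP rat 10RT46, with pineal gland and choroid plexus RNA, Cdh26 had 25.2 normalized counts compared to 0 to 7.63 in the 27 rats. Cdh4, Cdh10, Cdh13 and Cdh22 lay below all 27 rats there, Cdh4 at 44.3% and Cdh22 at 61.7% of the median. For 12RT23 and 10RT46, too, the share of all genes outside the range of the 27 rats was not determined. The part of the off-target tissue in these values was not tested.

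**Figure D3:**
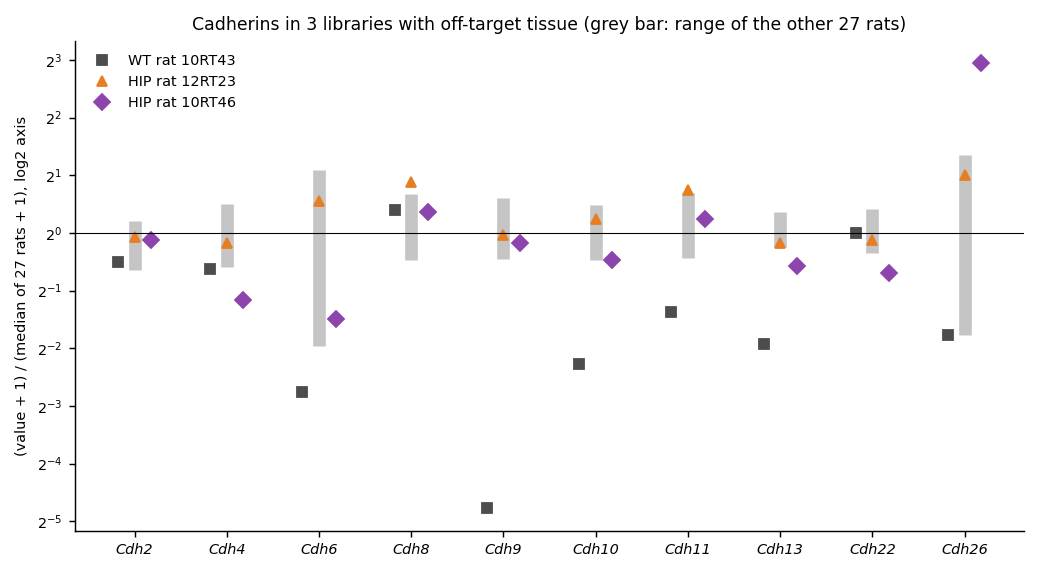
Level of each cadherin in the 3 off-target libraries relative to the median of the other 27 rats, as (normalized count + 1) / (median + 1) on a log2 axis. Grey bars are the range of the 27 rats, and symbols are 10RT43 (square), 12RT23 (triangle) and 10RT46 (diamond). The low point is Cdh9 in 10RT43, with 3.59 normalized counts, and the high point is Cdh26 in 10RT46, with 25.2.

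Region and cell type markers were related to the cadherins across the 27 rats below both off-target thresholds, as 130 relations of a cadherin to the mean of a marker list. Rats beyond a wide gap in a list mean were left out of its relations, and the rats on either side of the olfactory bulb gap were treated apart. In 3 relations both Pearson's r and Spearman's rho had a Benjamini-Hochberg adjusted permutation p-value under 0.05. The adjustment ran over all 130 relations, including those of the picked genes Cdh8, Cdh22 and Cdh26, whose p-values are not reported. Cdh6 rose with the neocortical layer markers (r = 0.75, adjusted permutation p = 0.0026; rho = 0.75, adjusted permutation p = 0.0013, n = 27), and r was 0.74 without the 2 rats farthest from the median. Within groups r was 0.80 in WT, 0.76 in HIP and 0.61 in AKO rats. The AKO rat with the lowest Cdh6, 6KAH98 (94.8 normalized counts), also had the lowest neocortical list mean of the 27 rats, 9.27 (log2).

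Cdh4 rose with the hippocampal markers (r = 0.73, adjusted permutation p = 0.00325; rho = 0.67, adjusted permutation p = 0.0169, n = 26), a list of which 3 of 6 genes were found. Within groups r was 0.62 in WT, 0.57 in HIP and 0.81 in AKO rats. Cdh4 also rose with the ependymal and motile cilia markers (r = 0.62, adjusted permutation p = 0.0368; rho = 0.61, adjusted permutation p = 0.0433, n = 26). Without the 2 rats farthest from the median, r was 0.57 (adjusted permutation p = 0.0908) and 0.52 (adjusted permutation p = 0.136), so both Cdh4 relations rest in part on those rats. Within groups r was 0.29 in WT, 0.76 in HIP and 0.75 in AKO rats for the ependymal markers. AKO rat 7AKO19, with the high choroid plexus list mean, is part of that relation. It had the highest Cdh4 (1188 normalized counts) and the highest ependymal list mean (5.31, log2) of the 27 rats. The r of Cdh26, the epithelial member, with the ependymal markers was 0.29 (rho = 0.25, n = 26). This r is given without a test because the gene was picked on its HIP values and most rats had at most 3 estimated reads of it.

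The rats with high and low olfactory bulb markers are compared as values only. Cdh10 had a median of 835 normalized counts (700 to 977) in the 10 rats with high bulb markers and 668 (504 to 741) in the 17 with low ones, with little overlap. Cdh11 had medians of 731 and 535, and Cdh8 of 398 and 329. Cdh6 went the other way, with medians of 309 and 487. Cdh22 had medians of 1009 and 1093, Cdh13 of 2062 and 2255 and Cdh26 of 2.18 and 2.43.

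**Figure D4:**
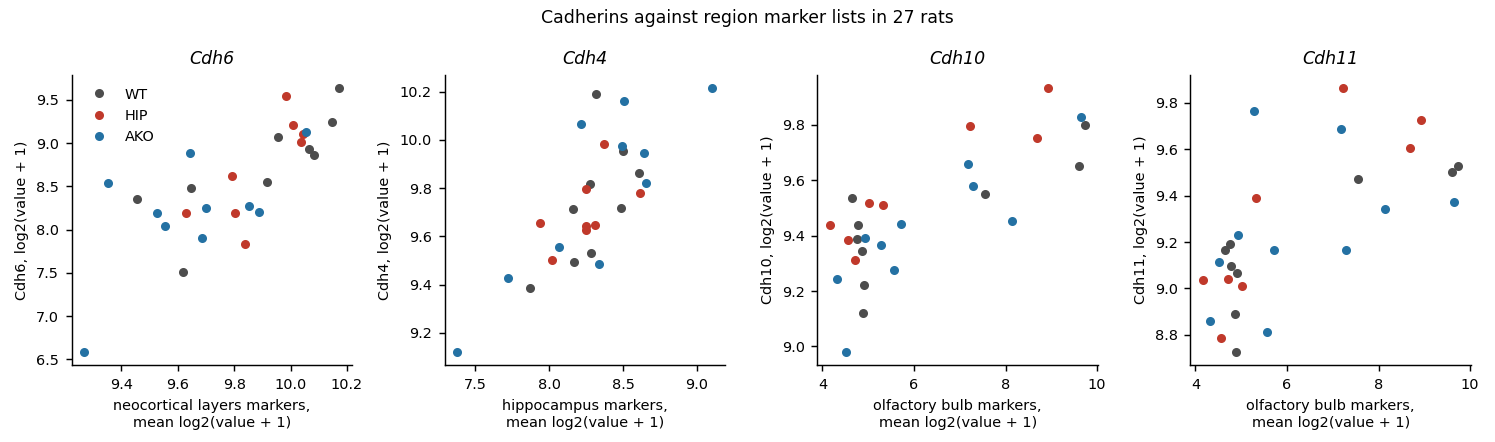
Level of Cdh6, Cdh4, Cdh10 and Cdh11 (y axis, log2 of normalized count + 1) against the mean of a region marker list (x axis, same scale) in the 27 rats below both off-target thresholds, coloured by group. Cdh6 rises with neocortical markers (r = 0.75) in all 3 groups, and the bulb markers in the 2 right panels fall into 2 clusters of 17 and 10 rats, with Cdh10 and Cdh11 mostly higher in the cluster of 10.

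Among the cadherins themselves, the closest pairs across the 27 rats were Cdh8 with Cdh11 (r = 0.73), Cdh10 with Cdh11 (r = 0.72) and Cdh8 with Cdh10 (r = 0.61). Cdh8, Cdh10 and Cdh11 were among the genes with a higher median in the rats with high bulb markers, as were Cdh2, Cdh4 and Cdh9. Cdh22 ran against Cdh8 (r = -0.61) and Cdh10 (r = -0.47). Cdh8 and Cdh22 were picked on HIP values that differ from WT in opposite directions, and WT and HIP rats are among the 27. A negative r between Cdh8 and Cdh22 is therefore partly built in. Cdh2 and Cdh4, the type I pair, had r = 0.54. These are descriptions over rats that differ in tissue composition, and they carry no p-value.

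The genes most alike to each cadherin were found among 13639 genes by Pearson's r over the same 27 rats. Cdh6 had the closest match of the set, the delta protocadherin Pcdh7 (r = 0.97), followed by Ralgapa1 (r = 0.96) and Pdzd8 (r = 0.95). Cdh11 was closest to Ndst3, a heparan sulfate enzyme (r = 0.91), and Cdh10 to Sema6a, an axon guidance protein (r = 0.86). Cdh22 was closest to Sdf2l1, a protein of the endoplasmic reticulum (r = 0.85), Cdh2 to Ptbp2, a neuronal splicing regulator (r = 0.85, and 0.59 without the 2 farthest rats), and Cdh4 to the syndecan Sdc3 (r = 0.83). Cdh9 was closest to the serotonin receptor gene Htr2c (r = 0.81), and Cdh8 to the cannabinoid receptor gene Cnr1 (r = 0.78). Cdh13 (Rpn1, r = 0.69) and Cdh26 (Mpp6, r = 0.69) had the weakest best matches.

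Other parts of the cadherin system were described with 4 lists: 15 other cadherins, 10 catenins and linkers that bind cadherin tails, 7 proteases that process cadherins and 9 delta protocadherins. No gene of these lists had an adjusted p-value under 0.05 in any of the 3 comparisons (limma). In HIP vs. WT rats 1 gene had an unadjusted p-value under 0.05, the catenin Arvcf, with 657 ± 63.5 vs. 732 ± 57.4 normalized counts (SD, n = 10 per group; log2 difference -0.16, limma p = 0.0160). This was 1 of 41 list genes tested, or 2.44%, compared to 2.57% of all genes, and 3 of 40, or 7.5%, without the off-target libraries, compared to 3.78% of all genes. All 9 delta protocadherins had a positive log2 difference there, with a median of 0.14, compared to 0.00 over all genes, and 6 of the 9 without the off-target libraries, with a median of 0.05. The medians of the other 3 lists were 0.00 to 0.02. The genes with the smallest p-values in the remaining lists were Cdh17 and Cdh19, Ctnnd2, Aph1a and Psen2, and Pcdh11x and Pcdh10, with log2 differences from -0.26 (Cdh19) to 0.70 (Cdh17). These values are with all rats. Without the off-target libraries 14 of the 15 other cadherins were tested, and their log2 differences lay between -1.05 and 0.21, below the 0.70 of Cdh17.

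Cdh18 and Cdh20, both type II cadherins, were the other cadherins with the smallest p-values in the comparisons with AKO rats. Cdh18 had 894 ± 150 normalized counts in HIP, 838 ± 142.4 in WT and 706 ± 133.8 in AKO rats (SD, n = 10 per group). Its log2 difference was -0.25 in AKO vs. WT (limma p = 0.0230, adjusted p = 0.447) and 0.34 in HIP vs. AKO (limma p = 0.0050, adjusted p = 0.220). Cdh20 had log2 differences of -0.29 and 0.24, and Cdh7 had -0.59 in AKO vs. WT (limma p = 0.0455). Of the catenins, Pkp4 was at 3294 ± 454 in AKO, 3841 ± 472 in WT and 3795 ± 417 in HIP rats (SD, n = 10 per group), a log2 difference of -0.23 in AKO vs. WT (limma p = 0.0191, adjusted p = 0.434). In AKO vs. WT these 4 of 40 list genes had an unadjusted p-value under 0.05, or 10%, near the 9.34% of all genes. Without the off-target library there were 5, or 12.5%, compared to 10.3% of all genes, with Pcdh9 and Pcdh20 in place of Cdh7. In HIP vs. AKO rats Pkp4 (0.21), Pcdh9 (0.50) and Pcdh8 (-0.29) joined Cdh18 and Cdh20, which made 5 of 41 genes, or 12.2%, near the 12.7% of all genes. Without the off-target libraries there were 7 of 40, or 17.5%, compared to 15.1% of all genes. With all rats the list medians lay between -0.00 and 0.05 in AKO vs. WT and between -0.05 and 0.13 in HIP vs. AKO rats. The 2 comparisons share their AKO rats. Without the off-target libraries the medians lay between -0.16 (delta protocadherins) and 0.03 (proteases) in AKO vs. WT. In HIP vs. AKO they then lay between -0.10 (other cadherins) and 0.21 (delta protocadherins).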

How the data were processed

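RNA was measured by RNA-seq in brain tissue of 30 male rats, grouped as WT, HIP and AKO by the genotype in the sample annotation. Per the study's methods, reads were aligned in Partek Flow to the rat genome rn7 and assigned to Ensembl genes, and the authors normalized the resulting counts with DESeq2. The submitters' processing notes also name STAR 2.7.8a and Bowtie2. The file deposited by the authors holds the normalized counts, a signal on a count scale without whole numbers. In each rat, 82.7% to 86.5% of the values between 0.3 and 30 were whole multiples, within 0.03 read, of the step that was taken as 1 read. Whole reads were therefore not recovered, and no count model was used. Dividing by the step gave the estimated reads, and 3 estimated reads were taken as the floor.

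The scale of all tests was log2(normalized count + 1), on which changes of low genes come out too small. Groups were compared by limma 3.58.1 in R 4.3.3 (lmFit, eBayes with trend, two-sided, no covariates) on genes averaging 1 or more normalized counts over both groups, with Benjamini-Hochberg adjustment over all tested genes and a threshold of 0.05. The fit was tested on simulated data. Correlations used permutation tests in Python 3.11.15 with scipy 1.17.1, numpy 2.4.6 and pandas 2.3.3. Rats whose list mean lay beyond a gap wider than 20% of its range were treated apart, a rule chosen after the data were seen.

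The members and the gene lists were chosen with earlier results of these data known. Of the lists of cadherin partners, the genes named are those passing the adjusted threshold and the 2 with the smallest p-values per list and comparison, given for AKO rats only where the unadjusted p-value was under 0.05. Cdh7 was named after its values were seen. For each cadherin the 3 genes with the highest r were sought, and the text gives the first, or for Cdh6 all 3. The marker lists were those of neocortical layers, hippocampus, striatum, olfactory bulb, thalamus, cerebellum, pineal gland, choroid plexus, ependyma and motile cilia, meninges, endothelium and oligodendrocytes. None of their genes had an adjusted p-value under 0.05 in any comparison (limma). An unadjusted one was found for 0 of 67 in HIP vs. WT, 0 of 64 in AKO vs. WT and 3 of 67 in HIP vs. AKO. Of all genes, 2.57%, 9.34% and 12.7% had one. Without the off-target libraries the marker counts were 1 of 62, 7 of 64 and 5 of 63 (1.61%, 10.9% and 7.94%). Of all genes, 3.78%, 10.3% and 15.1% had an unadjusted p-value under 0.05 there (limma). Alternatives were a pseudocount of 0.1 or 5, dropping the filter or raising it to 10, 1 fit over all 30 rats, quantile normalization, sample-quality weights, AKO-named or KAH-named knockout rats alone, leaving out the off-target libraries and leaving out each rat. Labels do not say whether the rats are littermates or how tissue pieces were dissected. Each p-value measures the spread between these rats.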

Additional observations from a re-analysis of the deposited data

Results flagged for a closer look

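A rat was singled out where its gap to the nearest rat of its group was wide against the range of the group by Dixon's test. Among the 21 combinations of a tested gene and a group, 7 such values were found. Of these, 6 came from off-target libraries, with 4 from 10RT43 alone. Chance would give 1.05 if the combinations were independent, but they share rats and libraries. The share of all genes with such values was not determined, so the count cannot be read as a trait of cadherins. An 8th value, that of Cdh26, is given as a description only, since this gene was picked on its HIP values. WT rat 10RT43 was the lowest of its group for Cdh2 (1353 normalized counts, the other WT rats 1796 to 2120), Cdh9 (3.588, the others 91.5 to 164), Cdh10 (142.3, the others 555 to 890.1) and Cdh13 (559.7, the others 1910 to 2716). HIP rat 10RT46 was the lowest for Cdh4 (372.4, the other HIP rats 724 to 1010) and Cdh13 (1418, the others 1887 to 2413), and the highest for Cdh26 (25.21, the others 0.969 to 5.81). The remaining value was Cdh2 in AKO rat 6KAH98 (1223, the other AKO rats 1695 to 2199), a library below both off-target thresholds.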

How the results depend on the processing

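No tested cadherin had an adjusted p-value under 0.05 under any alternative run. With unadjusted p-values under 0.05, the count of 0 of the 7 tested cadherins changed as follows. In HIP vs. WT it ranged from 0 to 1 when each rat was left out (1 without HIP rat 10RT52, where Cdh11 had limma p = 0.0499). In AKO vs. WT it was 1 with sample-quality weights (Cdh6), 1 without the off-target libraries (Cdh13), 1 without the off-target and bulb-high libraries (Cdh6), and 0 to 1 when each rat was left out (1 without 10RT43). In HIP vs. AKO it was 2 with sample-quality weights (Cdh4 and Cdh6), 1 without the off-target and bulb-high libraries (Cdh6), and 0 to 1 when each rat was left out (1 without 10RT46). In AKO vs. WT the share of the whole table passing was 10.3% without 10RT43 and 14.6% without the bulb-high libraries too. That share was not determined with sample-quality weights, when other single rats were left out, or in HIP vs. AKO without bulb-high libraries. The counts in those settings therefore cannot be read as a trait of cadherins. The direction turned for Cdh13 in AKO vs. WT, from 0.03 to -0.17, without the off-target libraries, which for this comparison means without 10RT43. Of the 21 differences of tested genes, 13 had the other sign in at least 1 setting, and apart from Cdh13 in AKO vs. WT these stayed at an unadjusted p-value over 0.05 there. Without the off-target libraries they included Cdh10 in AKO vs. WT (0.20 to -0.03), and Cdh6 (0.14 to -0.03) and Cdh13 (0.03 to -0.10) in HIP vs. WT. With the bulb-high libraries also left out they included Cdh4 (0.10 to -0.06) and Cdh9 (0.50 to -0.13) in AKO vs. WT, Cdh9 in HIP vs. WT (0.58 to -0.04) and Cdh11 in HIP vs. AKO (0.13 to -0.10). Why these values moved was not tested beyond the libraries named. Of the 3 relations, Cdh6 with neocortical markers passed with the off-target libraries added back and without the 2 farthest rats, and both Cdh4 relations passed in neither, with r = 0.18 (hippocampus) and r = 0.07 (ependyma) when the off-target libraries were added back (n = 29, with 1 rat beyond a gap left out). Leaving out the bulb-high libraries was chosen after the data were seen. No paired analysis was possible because the labels give each rat its own name and no replicate number shared between groups. Depth limits Cdh26, which had at most 3 estimated reads in most rats.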
